A study of Homo sapiens with 15 samples.

Results

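The cells were PSN-1, a human cell line established from a pancreatic ductal adenocarcinoma (PDAC). The effect of the small molecule SBI-477 on its transcripts was set against the effect of an siRNA against MondoA, to ask which genes answer to both, to 1 alone, or in opposite directions. SBI477 cells received the drug, named in the labels as an inhibitor of MondoA, and DMSO cells its vehicle. siMondoA cells were transfected with siRNA against MondoA (gene symbol MLXIP), and siControl cells with a control siRNA. Every culture was PSN-1 in RPMI medium with 10% fetal bovine serum, penicillin and streptomycin, and was taken at 72 hours; the drug concentration, the siRNA sequences and the time between the 2 experiments are not given in the sources used here. Members were chosen by label: SBI477 and DMSO replicates 1 and 3, and siMondoA and siControl replicates 1, 2 and 3, which is 10 of the 15 libraries of the study. Replicate 2 of the drug experiment was left out because its labels look exchanged. Among genes, 13778 of 26485 in the tables passed the filter on low counts and were tested.

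MondoA is a basic helix-loop-helix transcription factor that dimerises with MLX, senses glucose-derived sugar phosphates and shares partners with the network around MYC. Its best known targets are TXNIP and ARRDC4, arrestin-like proteins that restrain glucose uptake. The integrated stress response (ISR) is the program in which restrained translation initiation raises the transcription factor ATF4, which then drives amino acid transporters, amino acid enzymes, tRNA synthetases and stress regulators.

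Libraries held 29585149 and 23315440 counts in SBI477, 29177289 and 30480362 in DMSO, 12405037 to 13329700 in siMondoA and 11257452 to 14731691 in siControl. Levels are CPM (counts scaled to library size with TMM factors), which are not corrected for gene length, so that genes are compared only with themselves. A level of 3 counts corresponds to 0.0859 to 0.122 CPM in drug libraries and 0.21 to 0.286 CPM in siRNA libraries, for counting error only. The epithelial markers KRT8, KRT18, KRT19 and EPCAM were present in all groups. KRT8 was at 507 to 520 CPM in SBI477, 728 to 775 in DMSO, 563 to 968 in siMondoA and 877 to 1320 in siControl. The epithelial marker CDH1 was low in the drug libraries, at 0.973 to 1.04 CPM in SBI477 and 1.01 to 3.52 in DMSO. It stood higher in siMondoA, at 24 to 42.2 CPM, than in siControl, at 4.58 to 9.81. The T and B cell markers CD3E and MS4A1 were at 0 in all 10 libraries. The summed 6 fibroblast markers, mostly LUM and PDGFRA, stood at 93.1 to 103 CPM in SBI477, 71.5 to 108 in DMSO, 112 to 182 in siMondoA and 195 to 280 in siControl. The 6 immune markers, mostly CD68, CD14 and LYZ, summed to 66.4 to 70.8, 45.2 to 56.9, 76.6 to 98.4 and 59.2 to 73.6 CPM in the same groups, and the 5 endothelial markers to 35.6 to 37, 25 to 30.5, 29 to 40.5 and 22.8 to 26.9 CPM. Their part in the results was not tested, and in bulk RNA fewer cells of a type and less RNA per cell cannot be told apart. Whether replicates came from separate cultures is not stated in the labels, and p-values here reflect no more than the library-to-library spread, which may be technical. The 2 experiments also differ in reagent and in control, so whether a gap between DMSO and siControl levels, or part of a difference of effects, comes from the experiment or from the treatment cannot be told apart.

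More genes were called after the siRNA than after the drug, by a margin that depended on the fit. The siRNA groups had 3 libraries each and the drug groups 2. With each effect fitted on its own libraries the counts were 3856 and 2509. By edgeR's quasi-likelihood test (Benjamini-Hochberg adjusted p under 0.05 over all genes tested, 1 fit of the 10 libraries), 171 genes rose and 257 fell after SBI-477, 1.24% and 1.87% of those tested. After siMondoA 2476 rose and 2502 fell, 18% and 18.2%. The difference of the effects, SBI-477 minus siMondoA on the log2 scale, was called above 0 for 1173 genes and below 0 for 1224, 8.51% and 8.88%. Both effects were called for 219 genes. Of these, 168 shared a direction, which is 39.3% of the SBI-477 calls and 3.37% of the siMondoA calls. The other 51 had opposite directions, 11.9% and 1.02%. The 39.3% stands above the 18% and 18.2% of all genes called each way after siMondoA, and the 11.9% below them. Shared genes were up in 57 cases (0.414% of the genes tested) and down in 111 (0.806%). Opposite genes were up after SBI-477 in 26 cases (0.189%) and down after it in 25 (0.181%). Genes are called SBI-477 only where that effect and the difference were called and the siMondoA effect was not, which held for 59 rises (0.428%) and 78 falls (0.566%). The converse, siMondoA only, held for 997 rises (7.24%) and 934 falls (6.78%). These class names describe calls: an effect that misses the threshold is not shown to be absent. A further 2900 genes had 1 effect called and no call on the difference and stay undecided, 2828 of them with the siMondoA call.

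Genes that fell after SBI-477 stood low after siMondoA too: their median siMondoA effect was -0.39 and 72.8% were below 0. For genes that rose after SBI-477 the median siMondoA effect was 0.11, with 59.6% above 0. The other way round the drug effect was small, with a median of 0.04 for genes that rose after siMondoA and -0.04 for genes that fell. Over all genes tested the medians were 0.00124 for SBI-477 and -0.0142 for siMondoA, and Pearson's r between both effects was 0.171 across 13778 genes (Spearman's rho 0.126), a description over genes that are not independent. The count of SBI-477 calls rests on how the spread is estimated. A fit of the 4 drug libraries alone called 2509 genes (8.88% higher and 9.33% lower) and a fit of the 6 siRNA libraries alone 3856, and with the spread shared among all 10 libraries the noisier siMondoA libraries (median SD of log2 CPM 0.183, against 0.0665 in SBI477) enter the drug test. Without SBI477 replicate 1, SBI477 replicate 3, DMSO replicate 1 or DMSO replicate 3 the 428 SBI-477 calls were 63, 10, 76 and 8. Of the genes named below with an SBI-477 effect and its error, DGAT2, DMBT1, HSD11B1 and LAPTM5 kept their SBI-477 call without each of the 10 libraries in turn.

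**Figure D1:**
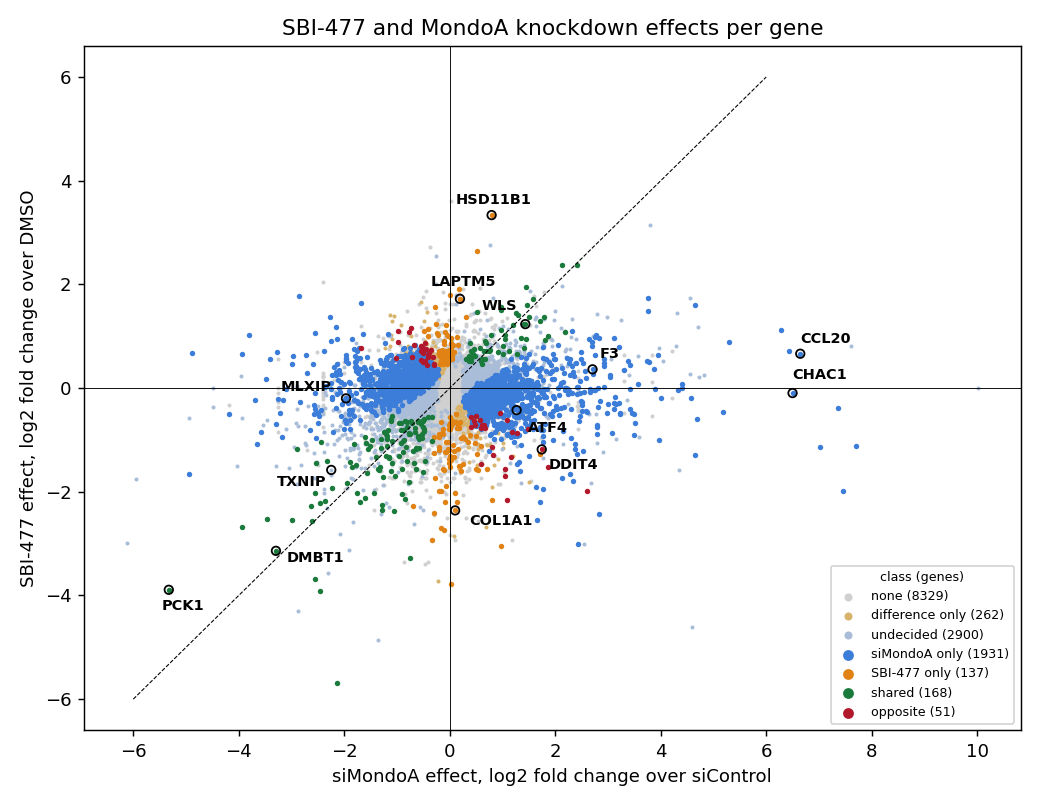
Each point is 1 of the 13778 genes tested, with its log2 fold change of siMondoA over siControl on the horizontal axis and of SBI477 over DMSO on the vertical axis, coloured by class; the broken line marks equal effects. The cloud is wider along the siMondoA axis, CHAC1 and CCL20 lie far right near a drug effect of 0, and PCK1 and DMBT1 lie low on both axes.

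The targeted transcript separated the experiments. MLXIP (chromosome 12, 122078722 to 122147347, plus strand; all gene positions are GENCODE v29 on GRCh38) stood at 64.6 and 61.7 CPM in SBI477, against 71.7 and 73.3 CPM in DMSO, and at 23.9, 24.7 and 16.7 CPM in siMondoA, against 89.6, 70.8 and 95.1 CPM in siControl. It fell in siMondoA by 1.97 on the log2 scale (SE 0.15, edgeR adjusted p = 1.17e-05), with no overlap between the groups. Its SBI-477 effect was -0.20 ± 0.17 (edgeR adjusted p = 0.553), and the difference of effects was 1.77 (95% interval 1.26 to 2.28, edgeR adjusted p = 0.0014). The partner MLX was at 75.8 and 71.5 CPM in SBI477, against 60.9 and 59.2 in DMSO (0.29 ± 0.11, edgeR adjusted p = 0.14), and rose in siMondoA to 72.9 to 79.4 CPM, against 56.9 to 63.3 in siControl (0.35 ± 0.09, 0.00991). MYC was at 601 and 659 CPM in SBI477, against 811 and 655 in DMSO (-0.22 ± 0.13, edgeR adjusted p = 0.376), and fell after siMondoA, at 497 to 532 CPM against 630 to 747 in siControl (-0.39 ± 0.11, 0.0158, but 0.0579 without siControl replicate 3).

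The direct targets TXNIP and ARRDC4 stood lower in both treated groups, but the drug effect on them did not pass the test. TXNIP (chromosome 1, 145992435 to 145996600, minus strand) stood at 68.5 and 38 CPM in SBI477, against 133 and 185 in DMSO, and at 167, 244 and 61.2 CPM in siMondoA, against 839, 845 and 556 in siControl. Neither pair of groups overlaps, and the DMSO libraries stood at the level of the siMondoA ones. The SBI-477 effect was -1.58 ± 0.48 (edgeR adjusted p = 0.0942) and the siMondoA effect -2.25 ± 0.40 (0.00144), with a difference of 0.67 (95% interval -0.66 to 2.00, adjusted p = 0.472). ARRDC4, which lies on chromosome 15 (97960698 to 97973838, plus strand), stood at 7.53 and 4.99 CPM in SBI477, against 14.2 and 17 in DMSO, and at 15, 17.8 and 6.9 CPM in siMondoA, against 52.8, 66.9 and 50.5 in siControl. Its effects were -1.31 ± 0.33 (edgeR adjusted p = 0.0564) and -2.10 ± 0.28 (0.000215), and its difference was 0.79 (-0.14 to 1.73, adjusted p = 0.216). In the fit of the drug libraries alone both genes fell after SBI-477 (edgeR adjusted p = 0.00448 each), and in the authors' deposited table TXNIP is listed at -1.59 for the drug and -2.41 for siMondoA. The authors' drug values were matched best by all 6 drug libraries with the replicate 2 labels exchanged, so their samples differ from those used here. The cell cycle repressor HBP1, another MondoA target, fell in both: 18.6 and 17.1 CPM in SBI477 against 26 and 36.2 in DMSO (-0.80 ± 0.18, edgeR adjusted p = 0.0378), and 43.2 to 55.4 CPM in siMondoA against 82.5 to 104 in siControl (-0.93 ± 0.14, 0.000608). The HBP1 drug call was lost without 6 of the 10 libraries in turn (SBI477 1 or 3, DMSO 3, siMondoA 3, siControl 2 or 3; adjusted p up to 0.359). Of 13 listed MondoA and ChREBP targets tested, HBP1 fell after SBI-477, while 7 fell and 4 rose after siMondoA. Median effects were -0.39 for SBI-477 and -0.51 for siMondoA. The siMondoA falls and rises were 53.8% and 30.8% of the list, against 18.2% and 18% of all genes. Without siMondoA 1 or siMondoA 2 the falls after SBI-477 were 4 and 5 of the list, and 7 in the fit of the drug libraries alone (53.8%, against 9.33% of all genes). The rises after siMondoA included TRIB3 and KLF10, and their cause was not tested.

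Promoter windows from RefSeq on GRCh38.p14, of 250 bases before to 50 after the start, are shown for these 2 targets because sugar-responsive factors bind paired E-boxes. The TXNIP window (chr1:145996530-145996829, minus strand) holds a pair of CACGNG matches, read on either strand and 5 bases apart, in capitals with the spacer, 88 bases before the start. This pair was searched after the data were seen and stands in 27 of 35116 windows (0.0769%). Among tested genes with a window it stood in 17 of 10125 (0.168%). The ARRDC4 window (chr15:97960453-97960752, plus strand) has capitals for an E-box, CACGTG, at -210, found in 7.26% of windows, and an AP-1 site, TGANTCA, at -119, found in 7.71%. Among tested genes with a window the E-box stood in 12.7% and the AP-1 site in 7.39%. Both strands were searched for every motif. These matches are letters in a window and not measured binding.
TXNIP: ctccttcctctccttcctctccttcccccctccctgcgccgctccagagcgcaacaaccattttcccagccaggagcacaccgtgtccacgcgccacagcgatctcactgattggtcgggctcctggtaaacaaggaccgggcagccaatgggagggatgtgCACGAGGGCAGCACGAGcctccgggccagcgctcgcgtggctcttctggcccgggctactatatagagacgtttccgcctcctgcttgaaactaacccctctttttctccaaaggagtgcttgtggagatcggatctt
ARRDC4: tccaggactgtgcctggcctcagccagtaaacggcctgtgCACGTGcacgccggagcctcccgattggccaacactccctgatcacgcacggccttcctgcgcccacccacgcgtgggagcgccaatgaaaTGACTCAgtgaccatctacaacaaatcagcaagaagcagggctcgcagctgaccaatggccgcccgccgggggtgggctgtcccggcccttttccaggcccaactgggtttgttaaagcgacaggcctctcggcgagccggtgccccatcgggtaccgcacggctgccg

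**Figure D2:**
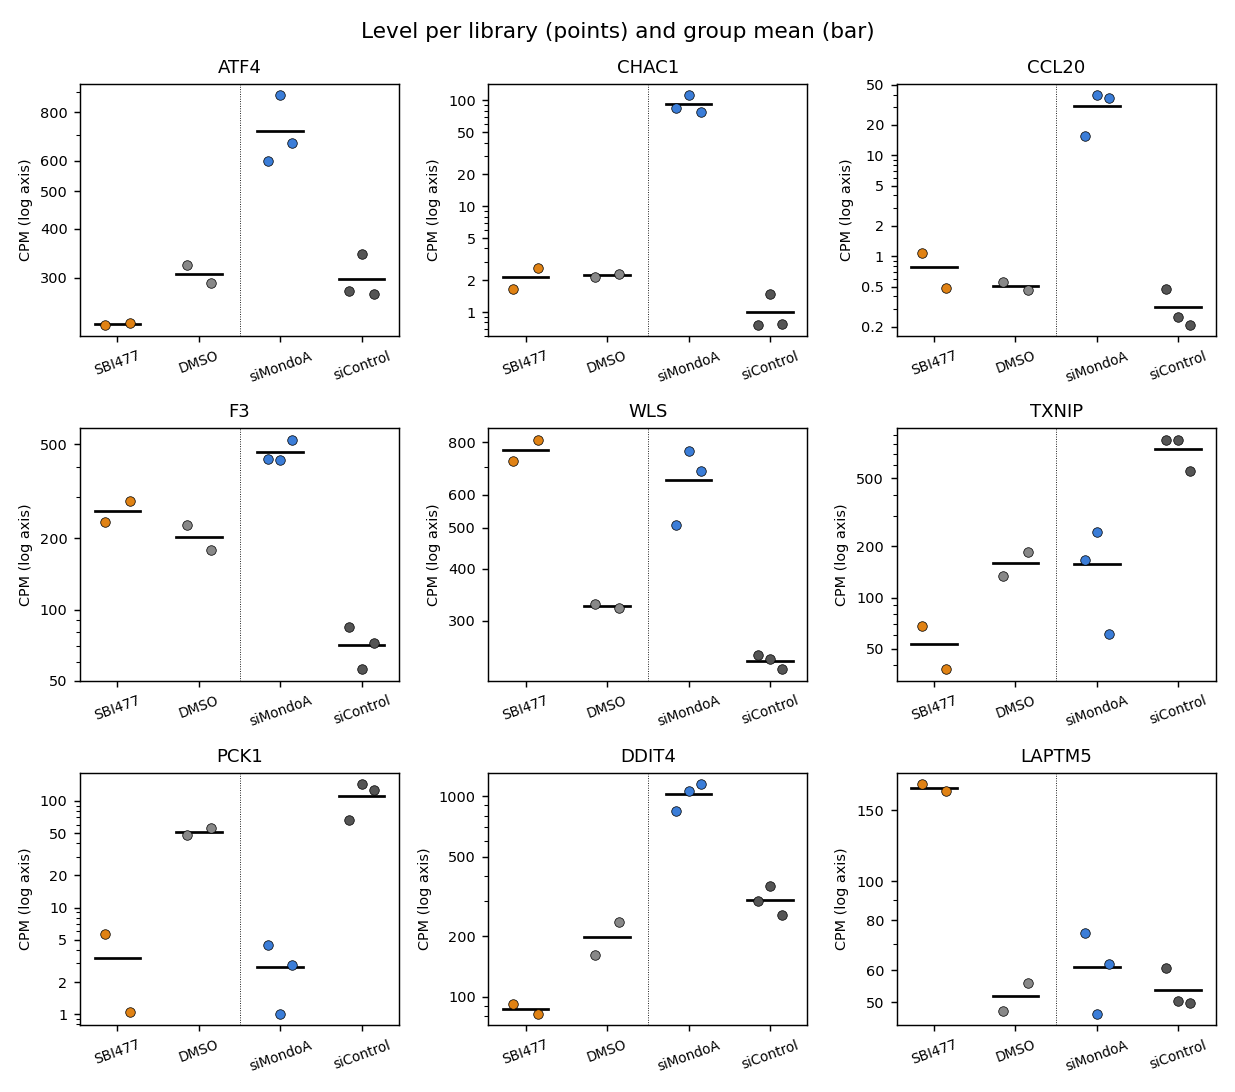
Level of 9 genes in CPM on logarithmic axes, 1 point per library and a bar at the group mean, for SBI477 and DMSO (2 libraries each) and for siMondoA and siControl (3 each). CHAC1 and CCL20 stand high in siMondoA alone, WLS is high and PCK1 low in both treated groups, DDIT4 is low in SBI477 and high in siMondoA, and LAPTM5 is high in SBI477 alone.

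ISR genes rose widely after the siRNA, while their calls after the drug were few and depended on the fit. Of 59 ISR genes tested, none rose and 1, DDIT4, fell after SBI-477 (1.24% and 1.87% of all genes), while 51 rose and 3 fell after siMondoA (18% and 18.2%). In the fit of the drug libraries alone 5 rose and 11 fell, 8.47% and 18.6% of the list against 8.88% and 9.33% of all genes, and without siMondoA 1 there were 5 falls. At an unadjusted p under 0.05 the drug test had 1 rise and 7 falls, DESeq2 called 1 and 2, and limma-voom 2 and 7. The median effect was -0.04 for SBI-477 and 1.70 for siMondoA, and the difference was called below 0 for 41 genes and above 0 for 1 (8.88% and 8.51%). With the 3 siMLX libraries, of an siRNA against MLX, added to the fit as a further group, the calls below 0 were 13; siMLX replicate 2 stood apart from the other two, with CHAC1 at 108 CPM against 0.755 and 1.94. ATF4 (chromosome 22, 39519695 to 39522685, plus strand) stood at 227 and 230 CPM in SBI477, against 323 and 290 in DMSO, and at 600, 885 and 667 CPM in siMondoA, against 277, 344 and 272 in siControl. Both SBI477 libraries lay below both DMSO libraries, while all 3 siMondoA libraries lay above all 3 siControl ones. ATF4 rose after siMondoA (1.27 ± 0.15, edgeR adjusted p = 0.000101); its SBI-477 effect was -0.42 ± 0.18 (0.2, or 0.0111 in the fit of the drug libraries alone). The difference was -1.69 (95% interval -2.20 to -1.19, edgeR adjusted p = 0.00157) and stayed called without each library in turn. In the authors' deposited table ATF4 is listed at -0.168 for the drug, a smaller fall, and at 1.27 for siMondoA.

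CHAC1 (chromosome 15, 40952962 to 40956519, plus strand), an ISR target that breaks down glutathione, had the smallest adjusted p for the difference among the named genes. It was at 1.66 and 2.59 CPM in SBI477, against 2.17 and 2.32 in DMSO, and at 85.1, 112 and 77.4 CPM in siMondoA, against 0.762, 1.5 and 0.769 in siControl. The drug groups overlap and the siRNA groups lie far apart. Its SBI-477 effect was -0.10 ± 0.28 (95% interval -0.72 to 0.52, edgeR adjusted p = 0.882), its siMondoA effect 6.50 ± 0.26 (2.12e-07) and the difference -6.60 (-7.47 to -5.73, 2.1e-05). ASNS, which makes asparagine, was at 43.9 and 50.4 CPM in SBI477, against 76.9 and 56.2 in DMSO, and at 92.8, 494 and 303 CPM in siMondoA, against 22 to 31.2 in siControl. siMondoA replicate 1 was the lowest of its group for ASNS, for TRIB3, a pseudokinase that restrains ATF4, and for INHBE, an activin subunit. The ASNS difference was -3.99 ± 0.68 (edgeR adjusted p = 0.0039) and that of TRIB3 -3.81 ± 0.53 (0.00166). The stress factor DDIT3 (CHOP) had effects of 0.07 ± 0.24 for SBI-477 and 3.57 ± 0.22 for siMondoA (difference -3.49 ± 0.33, edgeR adjusted p = 0.00027).

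By role, 10 of 12 ISR regulators rose after siMondoA (median effects -0.23 for SBI-477 and 2.32 for siMondoA), among them CEBPB (1.49 ± 0.12) and PPP1R15A, a phosphatase subunit that ends the response (2.39 ± 0.24). BHLHE41 fell (-1.87 ± 0.15, edgeR adjusted p = 1.29e-05), and ATF5 did not pass. Of 10 amino acid transporters 9 rose (medians 0.09 and 1.72), such as the cystine carrier SLC7A11, at 20.7 and 24.3 CPM in SBI477 against 21.8 and 21.1 in DMSO and at 54.5 to 159 CPM in siMondoA against 2.67 to 5.83 in siControl. Of 14 enzymes 12 rose and 1, ALDH18A1, fell (medians -0.06 and 1.72). PCK2 and MTHFD2, mitochondrial enzymes of phosphoenolpyruvate and one-carbon metabolism, had drug effects of -0.03 ± 0.50 and -0.01 ± 0.34 and siMondoA effects of 2.74 ± 0.44 and 2.18 ± 0.29. The PCK2 difference was lost without SBI477 1, SBI477 3 or DMSO 3 (edgeR adjusted p up to 0.0725). Of 13 tRNA synthetases 10 rose and 1, VARS, fell, by less (medians -0.04 and 1.06). Of 10 secreted and growth outputs all 10 rose (medians -0.50 and 2.47), with the stress hormone GDF15 at 21.2 and 29.9 CPM in SBI477 against 45.7 and 35.8 in DMSO, and at 219 to 468 CPM in siMondoA against 31.7 to 36.5 in siControl. In the fit of the drug libraries alone 1 output rose and 5 fell after SBI-477 (10% and 50%, against 8.88% and 9.33% of all genes). In that fit 2 regulators rose and 3 fell (16.7% and 25%), and 2 transporters rose and 2 fell (20% each). Of the enzymes 0 rose and 1 fell (7.14%), and no synthetase was called. All calls in this paragraph are edgeR calls at the same threshold.

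The windows of CHAC1 (chr15:40953221-40953520, plus strand) and ASNS (chr7:97872359-97872658, minus strand) are shown because both hold a C/EBP-ATF composite letter pattern, TGATGNAA, in capitals, at -209 and -68; the CHAC1 match is on the opposite strand. The pattern was found in 3.62% of all windows. Among tested genes with a window it stood in 5.5% of genes that rose after siMondoA only (41 of 746), in 2.71% of all (274 of 10125) and in 0 of 48 that rose after SBI-477 only, but also in 5.26% of genes that fell after SBI-477 only (3 of 57), in 4.65% of shared rises (2 of 43) and in 11.8% of opposite genes lower after SBI-477 (2 of 17). These shares rest on few genes outside the siMondoA only class and are a description with no test.
CHAC1: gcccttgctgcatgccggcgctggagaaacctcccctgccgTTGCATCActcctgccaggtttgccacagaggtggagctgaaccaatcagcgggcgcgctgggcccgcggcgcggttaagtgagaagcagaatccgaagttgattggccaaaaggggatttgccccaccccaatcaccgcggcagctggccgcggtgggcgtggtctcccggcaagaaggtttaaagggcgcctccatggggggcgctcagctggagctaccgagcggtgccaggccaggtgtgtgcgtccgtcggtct
ASNS: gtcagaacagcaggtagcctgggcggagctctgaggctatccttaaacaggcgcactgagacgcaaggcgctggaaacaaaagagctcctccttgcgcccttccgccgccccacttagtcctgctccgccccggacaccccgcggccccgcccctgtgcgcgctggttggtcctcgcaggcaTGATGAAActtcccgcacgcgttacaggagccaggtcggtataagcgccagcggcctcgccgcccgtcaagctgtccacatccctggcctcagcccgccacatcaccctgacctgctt

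Inflammatory genes also rose after the siRNA. Of 19 NF-kB targets and cytokines none rose and 1, TNFAIP2, fell after SBI-477, while 17 rose and none fell after siMondoA (89.5% of the list, against 18% of all genes). In the fit of the drug libraries alone 4 rose and 1 fell after SBI-477 (21.1% and 5.26%, against 8.88% and 9.33%), with CXCL3 at 1.73 (edgeR adjusted p = 0.0021), IL1B at 1.47 (0.00395) and CXCL2 at 0.87 (0.0258), which encode 2 chemokines and a cytokine. Of the 17 rises after siMondoA, 15 were siMondoA only (8 with the siMLX libraries in the fit), without siMondoA 1 there were 4 rises after SBI-477 (3 at an unadjusted p under 0.05 with all libraries, 1 by DESeq2 and 3 by limma-voom), and the medians were 0.11 for SBI-477 and 2.14 for siMondoA. The chemokine CCL20 (chromosome 2, 227805739 to 227817564, plus strand) stood at 1.07 and 0.486 CPM in SBI477, against 0.55 and 0.458 in DMSO, and at 15.5, 39.5 and 37.1 CPM in siMondoA, against 0.476, 0.25 and 0.21 in siControl, where it had 5, 3 and 3 counts. The SBI477 and DMSO values overlap, and the siControl values are at the limit of counting, so the size of its siMondoA effect, 6.65 ± 0.50 (edgeR adjusted p = 1.01e-05), is uncertain. Its SBI-477 effect was 0.66 ± 0.59 (edgeR adjusted p = 0.555) and the difference -5.98 ± 0.86 (0.00193). The cytokine IL6 was at 3.52 and 3.24 CPM in SBI477, against 3.3 and 4.41 in DMSO, and at 149 to 227 CPM in siMondoA, against 8.81 to 16.1 in siControl (difference -4.19 ± 0.37, edgeR adjusted p = 0.00027). IL1B stood higher in both treated groups: 249 and 297 CPM in SBI477 against 71.2 and 125 in DMSO (1.48 ± 0.54, edgeR adjusted p = 0.144), and 292 to 1357 CPM in siMondoA against 47.4 to 87.3 in siControl (3.76 ± 0.48, 0.000182). Its difference, -2.29 ± 0.69 (edgeR adjusted p = 0.0411), was lost without 8 of the 10 libraries in turn (up to 0.156), each one except siMondoA 1 and 2.

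Of 18 immediate early and AP-1 genes 1, JUN, rose and 1, CTGF, fell after SBI-477. These were 5.56% of the list each, against 1.24% and 1.87% of all genes. After siMondoA 15 rose and none fell, with medians of -0.11 for SBI-477 and 1.45 for siMondoA. In the fit of the drug libraries alone 2 rose and 5 fell after SBI-477 (11.1% and 27.8%, against 8.88% and 9.33%). The growth factor response gene EGR1 was at 106 and 86.5 CPM in SBI477, against 90.8 and 101 in DMSO, and at 296 to 606 CPM in siMondoA, against 59 to 81.1 in siControl (difference -2.81 ± 0.36, edgeR adjusted p = 0.00117). The AP-1 subunit JUN rose in both: 102 and 136 CPM in SBI477 against 61.3 and 57.6 in DMSO (1.00 ± 0.21, edgeR adjusted p = 0.0321), and 108 to 160 CPM in siMondoA against 30.1 to 43.9 in siControl (1.86 ± 0.18, 3.87e-05). The JUN drug call was lost without any 1 of the 4 drug libraries or siControl 2 (up to 0.353). CTGF encodes a secreted matrix-associated factor. Of 14 ERK output genes 1, ETV4, fell after SBI-477, and 7 rose after siMondoA, among them IER3 and DUSP5 (medians -0.04 and 0.39). The siMondoA rises were 50% of the ERK list and 83.3% of the immediate early list, against 18% of all genes. The DUSP5 difference, -1.46 ± 0.31 (edgeR adjusted p = 0.0104), was at 0.0502 without SBI477 1.

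Tissue factor rose after siMondoA and did not pass the test after SBI-477, and the genes listed with it were mixed. Of 14 clotting and plasminogen genes tested, 2 were shared falls, 3 rose and 2 fell after siMondoA only, and 3 were undecided. F3 (chromosome 1, 94529225 to 94541800, minus strand), which encodes tissue factor, the starter of coagulation, was at 235 and 288 CPM in SBI477, against 228 and 179 in DMSO, and at 432, 431 and 524 CPM in siMondoA, against 84.4, 55.9 and 72.3 in siControl. Both SBI477 values lie above both DMSO values by little, and the siMondoA and siControl values lie far apart. Its SBI-477 effect was 0.36 ± 0.19 (edgeR adjusted p = 0.303), its siMondoA effect 2.71 ± 0.17 (3.8e-06) and the difference -2.35 (95% interval -2.89 to -1.80, 0.000476). The DMSO level was itself above that of siControl, with means of 204 and 70.9 CPM. TFPI, which inhibits the tissue factor pathway, fell in both: 114 and 92.6 CPM in SBI477 against 177 and 236 in DMSO (it fell by 1.00, SE 0.18, edgeR adjusted p = 0.0204), and 255 to 333 CPM in siMondoA against 471 to 607 in siControl (-0.86 ± 0.15, 0.00127). PLAT, tissue plasminogen activator, also fell in both, with effects of -1.48 ± 0.28 (edgeR adjusted p = 0.0221) and -1.77 ± 0.23 (0.000213). The TFPI and PLAT drug calls were lost without SBI477 1, SBI477 3 or DMSO 3 (adjusted p up to 0.289 for each). The thrombin receptor F2R had an SBI-477 effect of -0.68 ± 0.17 (edgeR adjusted p = 0.0504) and fell after siMondoA (-1.97 ± 0.14, 7.74e-06), with a called difference (1.29 ± 0.22, 0.00346). Of the list 2 genes fell after SBI-477, and 6 rose and 4 fell after siMondoA (medians 0.25 and 0.40). The SBI-477 falls were 14.3% of the list (1.87% of all genes), and the siMondoA calls 42.9% up and 28.6% down (18% and 18.2%). In the fit of the drug libraries alone 3 rose and 3 fell (21.4% each, against 8.88% and 9.33%).

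The CCL20 window (chr2:227813592-227813891, plus strand) and the F3 window (chr1:94541710-94542009, minus strand) are shown for their kappa-B-like letters, GGNNTTTCC, at -79 and -187, in capitals. The CCL20 match is on the opposite strand, and the pattern stands in 6.26% of windows. Among tested genes with a window it stood in 9.02%. F3 has 2 AP-1 sites, TGANTCA, in capitals at -223 and -210.
CCL20: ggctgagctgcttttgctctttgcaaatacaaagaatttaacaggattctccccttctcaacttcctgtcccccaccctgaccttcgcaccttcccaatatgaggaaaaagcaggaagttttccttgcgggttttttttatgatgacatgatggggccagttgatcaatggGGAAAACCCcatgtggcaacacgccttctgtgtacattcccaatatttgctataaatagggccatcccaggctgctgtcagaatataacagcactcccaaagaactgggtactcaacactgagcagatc
F3: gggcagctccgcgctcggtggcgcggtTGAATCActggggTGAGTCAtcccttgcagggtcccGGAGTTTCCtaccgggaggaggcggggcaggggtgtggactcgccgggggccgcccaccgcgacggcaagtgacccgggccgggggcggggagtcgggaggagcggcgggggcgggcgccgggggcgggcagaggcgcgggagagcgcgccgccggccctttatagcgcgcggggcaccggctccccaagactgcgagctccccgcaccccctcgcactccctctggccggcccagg

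WLS rose in both experiments. WLS (chromosome 1, 68098473 to 68233120, minus strand) encodes Wntless, which carries WNT ligands to the cell surface. It was at 722 and 812 CPM in SBI477, against 330 and 322 in DMSO, and at 507, 762 and 682 CPM in siMondoA, against 249, 244 and 230 in siControl. Every treated library lay above every control library of both experiments. It rose by 1.23 ± 0.17 after SBI-477 (edgeR adjusted p = 0.00672) and by 1.43 ± 0.14 after siMondoA (3.29e-05). The difference was -0.20 (95% interval -0.66 to 0.26, edgeR adjusted p = 0.542). The drug call was lost without SBI477 3 or DMSO 3 (adjusted p up to 0.111). PORCN, the enzyme that adds the lipid WNT ligands need for secretion, rose after SBI-477 (0.92 ± 0.19, edgeR adjusted p = 0.0294) and was at 0.36 ± 0.16 after siMondoA (0.106); its drug call was lost without any 1 of the 4 drug libraries or siControl 2 (up to 0.333). The receptors FZD2 and FZD7 had drug effects of -0.45 ± 0.20 and 0.17 ± 0.15, and both fell after siMondoA (-1.48 ± 0.17 and -1.29 ± 0.13). Of 19 listed WNT genes tested, 2 rose after SBI-477, and 4 rose and 8 fell after siMondoA (medians -0.11 and 0.01). The siMondoA shares were 21.1% up, near the 18% of all genes, and 42.1% down, against 18.2%. The SBI-477 rises were 10.5% of the list, against 1.24%. In the fit of the drug libraries alone 3 rose and none fell (15.8% up, against 8.88%).

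**Figure D3:**
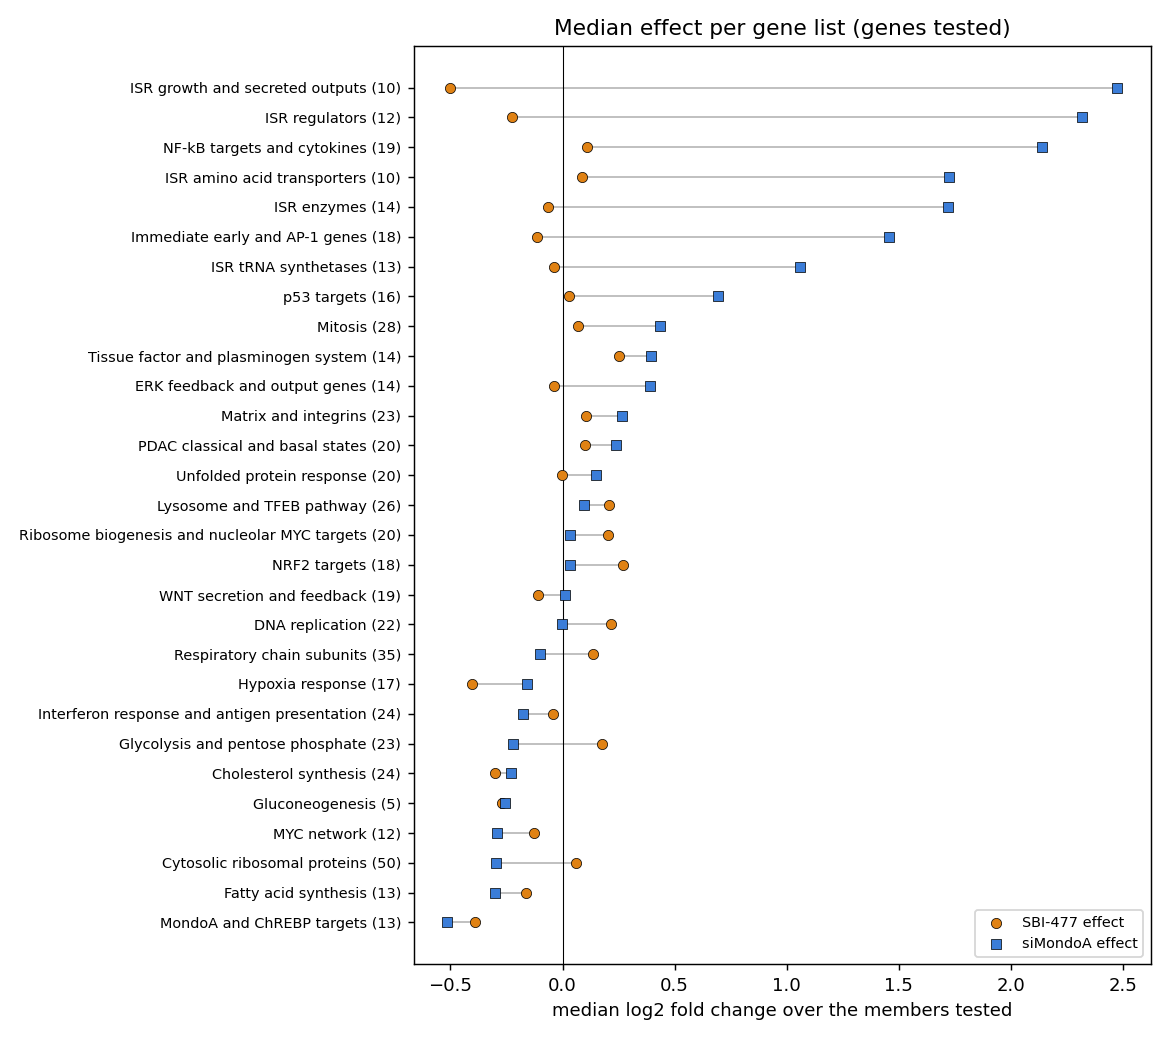
Median log2 fold change of each gene list, with the number of genes tested in brackets, for SBI-477 over DMSO (circles) and siMondoA over siControl (squares). The 5 ISR lists, the NF-kB list and the immediate early list have siMondoA medians of 1.06 to 2.47 and SBI-477 medians of -0.50 to 0.11, and the target list of MondoA and ChREBP lies left of 0 for both.

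Ranked by the smaller of their 2 effects, PCK1 and DMBT1 had the largest shared falls, ahead of COL1A2 (-2.67 after SBI-477 and -3.93 after siMondoA). PCK1 (chromosome 20, 57561080 to 57568112, plus strand), a gluconeogenic enzyme of the cytosol that makes phosphoenolpyruvate, was at 5.65 and 1.05 CPM in SBI477, against 47.7 and 55.4 in DMSO, and at 4.46, 1.01 and 2.9 CPM in siMondoA, against 66.7, 144 and 126 in siControl. All 5 treated libraries lay below all 5 controls. It fell by 3.89 on the log2 scale after SBI-477 (SE 0.58, edgeR adjusted p = 0.0093, but 0.109 at most without SBI477 3 or DMSO 3) and by 5.33 after siMondoA (SE 0.54, 4.36e-05), with a difference of 1.44 (95% interval -0.26 to 3.13, 0.22). DMBT1 (chromosome 10, 122560665 to 122643736, plus strand), a secreted mucosal glycoprotein, was at 4.43 and 1.95 CPM in SBI477, against 23.7 and 33.8 in DMSO, and at 17.4 to 28.2 CPM in siMondoA, against 179 to 278 in siControl. Its effects were -3.14 ± 0.35 (edgeR adjusted p = 0.00294) and -3.30 ± 0.26 (1.27e-05), with a difference of 0.16 (-0.78 to 1.09, 0.835).

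Also down in both were the collagen chain gene COL1A2, the interferon-induced genes IFIT2 and IFITM1, the pyruvate dehydrogenase kinase PDK1, the homeobox gene HOXA3 and SREBF1, the factor that drives fatty acid synthesis genes. SREBF1 was at 26.7 and 22 CPM in SBI477, against 64.1 and 84.8 in DMSO (-1.61 ± 0.22, edgeR adjusted p = 0.00733), and at 57.1 to 97.9 CPM in siMondoA, against 110 to 121 in siControl (-0.50 ± 0.18, 0.0458). It was 1 of 16 shared genes with a called difference, 8 of them larger after the drug and 8 larger after siMondoA (difference -1.12 ± 0.28, edgeR adjusted p = 0.0209, up to 0.107 without SBI477 3, DMSO 3 or siMondoA 3). HOXA3 had effects of -1.02 ± 0.14 after SBI-477 and -0.89 ± 0.12 after siMondoA (edgeR adjusted p 0.00749 and 0.000242). Shared rises included DGAT2 (chromosome 11, 75759512 to 75801535, plus strand), which makes triacylglycerol, at 25.4 and 29.9 CPM in SBI477 against 9.9 and 10.9 in DMSO (1.41 ± 0.15, edgeR adjusted p = 0.00294), and at 21.3 to 24.2 CPM in siMondoA against 8.57 to 10.2 in siControl (1.30 ± 0.13, 4.7e-05). CD68, a lysosomal glycoprotein used as a macrophage marker, rose by 1.02 ± 0.18 and 1.05 ± 0.15 (edgeR adjusted p 0.0165 and 0.000389), and SEMA7A, a membrane semaphorin, by 0.95 ± 0.14 and 1.45 ± 0.12 (0.0088 and 1.59e-05). All of these drug calls but that of DGAT2 were lost without SBI477 3 and without DMSO 3, and some also without SBI477 1, DMSO 1, siMondoA 3, siControl 2 or siControl 3, at edgeR adjusted p up to 0.417 for IFITM1; the siMondoA call of SREBF1 was lost without SBI477 1 or 3, siMondoA 2 or 3 or any siControl library (up to 0.121) and that of PDK1 without siControl 2 (0.0679).

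DDIT4 and TPP1 were among the genes with opposite effects. DDIT4 (chromosome 10, 72273920 to 72276036, plus strand), which restrains mTORC1 under stress, was at 92.3 and 82.3 CPM in SBI477, against 161 and 236 in DMSO, and at 845, 1067 and 1149 CPM in siMondoA, against 301, 357 and 256 in siControl. Groups do not overlap in either experiment. It fell by 1.18 on the log2 scale after SBI-477 (SE 0.21, edgeR adjusted p = 0.0179) and rose by 1.74 ± 0.17 after siMondoA (3.97e-05), a difference of -2.93 (95% interval -3.52 to -2.33, 0.00027). BBC3 (PUMA), a pro-death BCL2 family member, fell after SBI-477, at 5.96 and 5.35 CPM against 10.3 and 9.33 in DMSO (-0.79 ± 0.18, edgeR adjusted p = 0.0405), and rose after siMondoA, at 23.5 to 30 CPM against 7.97 to 10.2 in siControl (1.48 ± 0.15, 4.97e-05). TNFAIP2, an NF-kB target, fell by 0.61 and rose by 0.58 (SE 0.14 and 0.11, edgeR adjusted p 0.04 and 0.00254). In the other direction TPP1 (chromosome 11, 6612763 to 6619485, minus strand), a lysosomal peptidase, was at 85.4 and 93.9 CPM in SBI477, against 40.7 and 56.2 in DMSO (0.89 ± 0.17, edgeR adjusted p = 0.0221), and at 42.1 to 50.9 CPM in siMondoA, against 81.5 to 102 in siControl (-0.98 ± 0.14, 0.000389). CCNE1, cyclin E1, rose by 0.81 ± 0.19 after SBI-477 (edgeR adjusted p = 0.0396) and fell by 0.55 after siMondoA (SE 0.16, 0.0219). NCEH1, a cholesterol ester hydrolase, rose by 0.74 ± 0.11 (edgeR adjusted p = 0.0101) and fell by 0.36 (SE 0.09, 0.0112). All 6 of these drug calls were lost without SBI477 1, SBI477 3 or DMSO 3, and some also without DMSO 1, siMondoA 3 or any siControl library, at edgeR adjusted p up to 0.392 for BBC3 and TNFAIP2, and the CCNE1 siMondoA call without siMondoA 3, siControl 1 or siControl 3 (up to 0.0706). The differences of DDIT4, BBC3, TPP1 and CCNE1 stayed called without each library in turn.

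**Figure D4:**
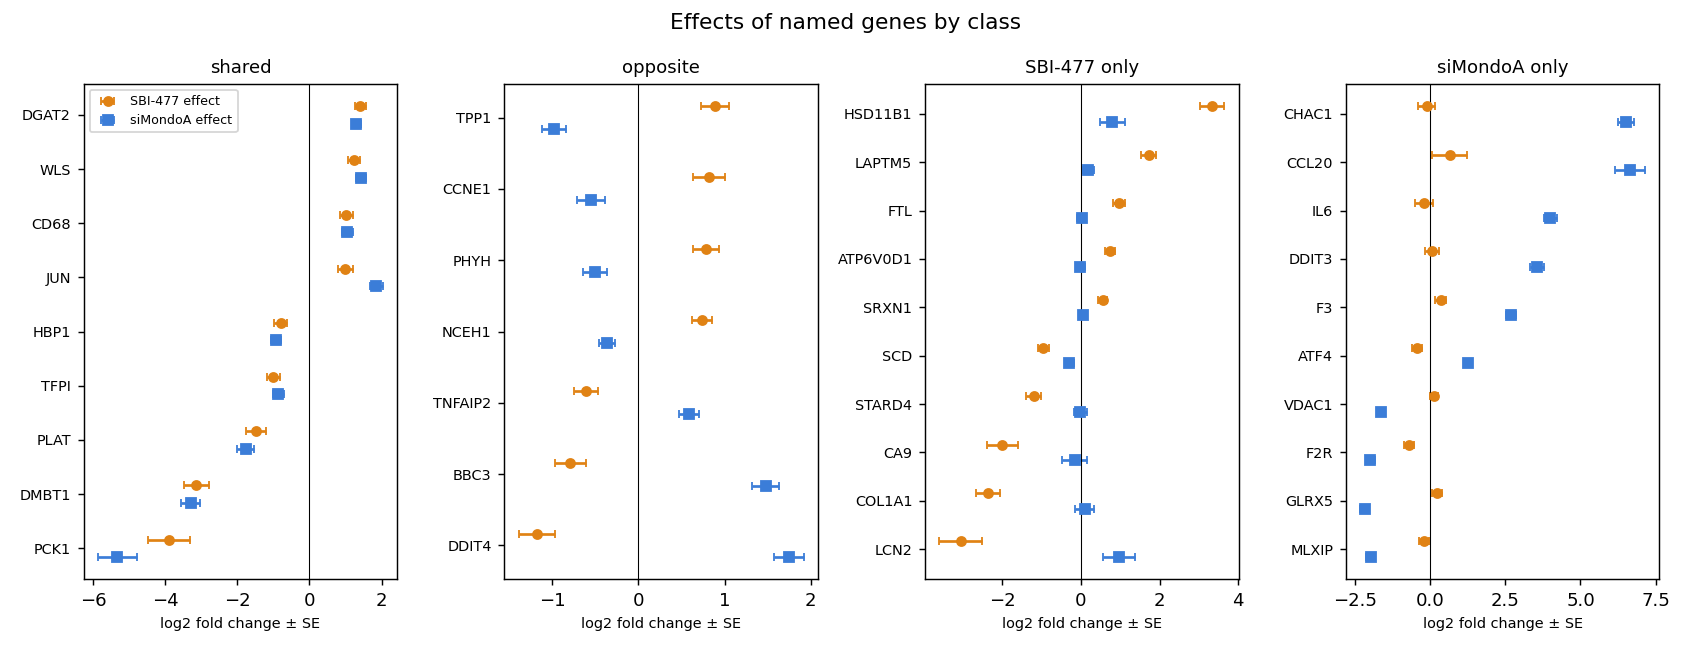
Log2 fold change with its SE for genes of the shared, opposite, SBI-477 only and siMondoA only classes, for SBI-477 over DMSO (circles) and siMondoA over siControl (squares); horizontal axes differ between panels. Both symbols lie on one side of 0 for shared genes such as WLS and PCK1 and on opposite sides for DDIT4 and TPP1.

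LAPTM5 and HSD11B1 rose after SBI-477, each by more than after siMondoA. LAPTM5 (chromosome 1, 30732469 to 30757820, minus strand), a lysosomal membrane protein known from blood cells, was at 174 and 168 CPM in SBI477, against 47.7 and 56 in DMSO, and at 74.6, 46.9 and 62.4 CPM in siMondoA, against 61, 50.3 and 49.7 in siControl. The SBI477 values stand apart from the rest, while the siRNA groups overlap. It rose by 1.72 ± 0.19 after SBI-477 (edgeR adjusted p = 0.00294), against 0.19 ± 0.15 after siMondoA (0.352), a difference of 1.53 (95% interval 1.01 to 2.05, 0.00263). The common leukocyte gene PTPRC was at 0 in both SBI477 libraries, and at 0.0305 and 0.0286 CPM in DMSO, below the floor of 3 counts. The macrophage marker CD68 stood higher in SBI477 than in DMSO, at 41.4 and 51.4 against 20.2 and 25.4 CPM, and CD14 lower, at 16.6 and 13.3 against 18.3 and 18.9 CPM; their part in the LAPTM5 level was not tested. HSD11B1 (chromosome 1, 209686178 to 209734950, plus strand), which regenerates active glucocorticoid, was at 10.4 and 13 CPM in SBI477, against 0.978 and 1.32 in DMSO (3.34 ± 0.31, edgeR adjusted p = 0.00261), and at 1.77 to 3.49 CPM in siMondoA, against 1.24 to 1.42 in siControl (0.79 ± 0.32, 0.0705). All siMondoA values lay above all siControl values, without passing the test. Its difference was 2.54 ± 0.44 (edgeR adjusted p = 0.00438). Both drug calls and both differences stayed called without each library in turn. Smaller rises after SBI-477 only were those of FAH, which ends tyrosine breakdown (1.00 ± 0.13, edgeR adjusted p = 0.0061), the ferritin light chain FTL (0.97 ± 0.15, 0.0106), the V-ATPase subunit ATP6V0D1 (0.74 ± 0.13, 0.0187) and SRXN1, which repairs peroxiredoxins (0.55 ± 0.11, 0.0248). Their siMondoA effects were -0.04 to 0.05. These 4 drug calls were lost without SBI477 3 or DMSO 3, and those of ATP6V0D1 and SRXN1 also without SBI477 1 or DMSO 1 (edgeR adjusted p up to 0.309 for SRXN1). The difference was lost for FTL without SBI477 3 (0.0563), for ATP6V0D1 without SBI477 3, DMSO 1 or DMSO 3 (up to 0.0794) and for SRXN1 without each library except DMSO 1, siMondoA 1 and siMondoA 2 (up to 0.145). Of 18 listed NRF2 targets 2 rose after SBI-477, FTL and SRXN1, and 5 rose and 2 fell after siMondoA (medians 0.27 and 0.03). The SBI-477 rises were 11.1% of the list (1.24% of all genes), and the siMondoA calls 27.8% and 11.1% (18% and 18.2%). In the fit of the drug libraries alone 7 NRF2 targets rose and 1 fell, 38.9% and 5.56%, against 8.88% and 9.33% of all genes. Of 26 lysosomal genes 4 rose after SBI-477, ATP6V0D1, CTSD and SQSTM1 among them, against 6 up and 3 down after siMondoA (medians 0.21 and 0.10). The SBI-477 rises were 15.4% of this list, and the siMondoA calls 23.1% and 11.5%. The 4 lysosomal calls were 0 without any 1 of the 4 drug libraries, 1 without siMondoA 3, siControl 2 or siControl 3, and 8 without siMondoA 2; in the fit of the drug libraries alone there were 11 (42.3%, against 8.88% of all genes).

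Falls after SBI-477 only included COL1A1, LCN2, CA9 and genes of sterol and fatty acid control. COL1A1 (chromosome 17, 50183289 to 50201632, minus strand), a chain of type I collagen, was at 5.65 and 5.96 CPM in SBI477, against 21.6 and 38 in DMSO, and at 46.4, 31.6 and 31 CPM in siMondoA, against 43, 25.5 and 33.2 in siControl (difference -2.46, 95% interval -3.31 to -1.62, edgeR adjusted p = 0.0027). Its drug effect was -2.36 ± 0.31 (edgeR adjusted p = 0.0061, but up to 0.111 without SBI477 3 or DMSO 3). The fibroblast markers LUM and PDGFRB, at 19.8 to 21.8 and 3.61 to 5.53 CPM in SBI477 against 24 to 44 and 6.26 to 11.6 CPM in DMSO, stood lower beside it, and PDGFRA, at 68.2 to 73.9 against 39.4 to 49.4 CPM, stood higher; their part was not tested. The iron-binding defence protein LCN2 was at 2.92 and 2.27 CPM in SBI477, against 21.2 and 22.2 in DMSO (-3.05 ± 0.55, edgeR adjusted p = 0.0188), and at 17.4 to 71 CPM in siMondoA, against 13 to 26.1 in siControl (0.98 ± 0.40, 0.0785). STARD4, a cholesterol carrier, was at 22.4 and 25.5 CPM in SBI477, against 55.4 and 54.5 in DMSO (-1.20 ± 0.19, edgeR adjusted p = 0.0121), and had a siMondoA effect of -0.01 ± 0.16. SREBF2, the master factor of cholesterol synthesis, fell by 0.72 (SE 0.15, edgeR adjusted p = 0.0316) and SCD, the stearoyl-CoA desaturase, by 0.95 (SE 0.14, 0.00903). INSIG1, which holds back SREBF processing, fell in both (-1.44 ± 0.27 and -0.68 ± 0.22, edgeR adjusted p 0.021 and 0.0315). CA9, a hypoxia-induced carbonic anhydrase, fell by 1.99 (SE 0.39, edgeR adjusted p = 0.0251). Of 24 cholesterol genes 3 fell and 1, PMVK, rose after SBI-477, and 8 fell and 1 rose after siMondoA (medians -0.30 and -0.23). Of 13 fatty acid genes 3 fell after SBI-477, and 5 fell and 1 rose after siMondoA (medians -0.16 and -0.30). Of 17 hypoxia genes 3 fell after SBI-477, and 5 rose and 3 fell after siMondoA (-0.40 and -0.16). The SBI-477 falls were 12.5%, 23.1% and 17.6% of these lists, against 1.87% of all genes. The siMondoA falls were 33.3%, 38.5% and 17.6%, against 18.2%, and the rises 4.17%, 7.69% and 29.4%, against 18%. In the fit of the drug libraries alone 9, 4 and 8 genes fell (37.5%, 30.8% and 47.1%, against 9.33%). In that fit 3, 1 and 2 rose (12.5%, 7.69% and 11.8%, against 8.88%). The drug calls of LCN2, STARD4, SREBF2, SCD, INSIG1 and CA9 were lost without SBI477 1, SBI477 3 or DMSO 3, all but that of SCD also without DMSO 1, and those of SREBF2 and CA9 also without siControl 3 (edgeR adjusted p up to 0.308); that of SREBF2 was lost without siControl 2 as well. The 8 cholesterol falls after siMondoA were 2 to 4 without siMondoA 2, siMondoA 3 or any 1 siControl library, and 13 without siMondoA 1. The differences of SREBF2, SCD and CA9 were lost without 6, 7 and 6 libraries, SBI477 3, DMSO 3 and siMondoA 3 among them for each (edgeR adjusted p up to 0.133), that of STARD4 without SBI477 1 (0.0549), and the INSIG1 siMondoA call without siMondoA 2 or 3 or any siControl library (up to 0.113).

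VDAC1 and GLRX5 were among the 934 genes that fell after siMondoA only. VDAC1 (chromosome 5, 133971915 to 134005133, minus strand), the main channel of the outer mitochondrial membrane, was at 419 and 446 CPM in SBI477, against 424 and 361 in DMSO (0.14 ± 0.13, edgeR adjusted p = 0.571), and at 229, 204 and 185 CPM in siMondoA, against 636, 651 and 621 in siControl (-1.63 ± 0.11, 5.29e-06). Its difference was 1.77 (95% interval 1.40 to 2.13, edgeR adjusted p = 0.00027). GLRX5 (chromosome 14, 95533503 to 95544724, plus strand), of mitochondrial iron-sulphur cluster assembly, was at 76 and 82.8 CPM in SBI477, against 72 and 61.7 in DMSO, and at 12.5 to 19.3 CPM in siMondoA, against 62.6 to 75.1 in siControl (difference 2.41 ± 0.23, edgeR adjusted p = 0.00027). The vesicle protein VAMP3, the flippase subunit TMEM30A and the respiratory subunit NDUFA2 had drug effects of 0.38, -0.20 and 0.29 and fell after siMondoA by 1.12, 1.98 and 1.24 (SE 0.10, 0.12 and 0.12). Of 35 respiratory chain genes 1, NDUFB10, rose after SBI-477, and 2 rose and 7 fell after siMondoA (medians 0.14 for SBI-477 and -0.10 for siMondoA). The falls were 20% of the list, near the 18.2% of all genes, and 4 (11.4%) were siMondoA only, against 6.78%. Of 50 ribosomal protein genes 1, RPL7, fell after SBI-477, and 22 fell after siMondoA, a count of 7 without siMondoA 3, 8 without siControl 2 and 10 without siControl 1; the medians were 0.06 and -0.30. The 22 falls after siMondoA were 44% of the list, against 18.2% of all genes. RPL7 was at 4.7 to 15.3 CPM in drug libraries and 1400 to 2013 CPM in siRNA libraries, a gap present in the controls of both experiments. Genes of this family have many near-identical copies, and single values are uncertain with 25-base reads. What made the RPL7 gap between the experiments was not tested.

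Of 28 mitotic genes none rose after SBI-477 by edgeR (3 at an unadjusted p under 0.05, 0 by DESeq2 and 2 by limma-voom), and 17 rose after siMondoA, 60.7% against 18% of all genes, with medians of 0.07 and 0.44. In the fit of the drug libraries alone 5 rose after SBI-477 (17.9%, against 8.88%). The difference was called below 0 for 7 of them, for 2 without SBI477 3 or DMSO 1, for 4 without SBI477 1, siControl 1 or siControl 2, and for 14 without siMondoA 2. The kinase AURKA was at 342 and 332 CPM in SBI477, against 299 and 267 in DMSO (0.25 ± 0.12, edgeR adjusted p = 0.26), and at 296 to 361 CPM in siMondoA, against 160 to 176 in siControl (0.99 ± 0.10, 4.5e-05). Its difference, -0.74 ± 0.16 (edgeR adjusted p = 0.0104), was lost without SBI477 3 or DMSO 1 (up to 0.0629). Of 22 DNA replication genes 1, CCNE1, rose after SBI-477, and 4 rose and 5 fell after siMondoA (10 falls without siMondoA 1, and 2 or 3 without each other library except DMSO 1 and 3; medians 0.22 for SBI-477 and 0.00 for siMondoA). Those siMondoA shares, 18.2% up and 22.7% down, are near the 18% and 18.2% of all genes. In the fit of the drug libraries alone 5 DNA replication genes rose and none fell after SBI-477 (22.7% up, against 8.88%). Of 16 p53 targets 1, BBC3, fell after SBI-477, and 9 rose and 3 fell after siMondoA (medians 0.03 and 0.69). Of 23 matrix and integrin genes 2 fell after SBI-477, and 10 rose and 5 fell after siMondoA (0.10 and 0.27). Of 24 interferon and antigen presentation genes 2 fell after SBI-477, and 3 rose and 8 fell after siMondoA (-0.04 and -0.18). For p53, matrix and interferon genes the siMondoA shares were 56.2% up and 18.8% down, 43.5% and 21.7%, and 12.5% and 33.3%, against 18% and 18.2%. Their SBI-477 falls were 6.25%, 8.7% and 8.33%, against 1.87% of all genes. In the fit of the drug libraries alone the rises and falls were 3 and 1, 4 and 3, and 2 and 5. These were 18.8% and 6.25%, 17.4% and 13%, and 8.33% and 20.8%, against 8.88% and 9.33% of all genes. Of 23 glycolysis and pentose phosphate genes 1, TALDO1, rose after SBI-477, and 4 rose and 3 fell after siMondoA (0.18 and -0.22), 17.4% and 13% of the list and no more than the 18% and 18.2% of all genes. In the fit of the drug libraries alone 5 glycolysis and pentose phosphate genes rose and 2 fell after SBI-477 (21.7% and 8.7%, against 8.88% and 9.33%). Of 5 gluconeogenesis genes PCK1 fell after SBI-477, and 1 rose and 2 fell after siMondoA (-0.27 and -0.26), 20% and 40% of a short list. In the edgeR fit of 10 libraries no member of 4 lists was called after SBI-477. These were the MYC network (12 genes, 3 up and 5 down after siMondoA) and the nucleolar MYC targets (20, 2 and 4). The others were the unfolded protein response (20, 3 and 1) and the PDAC state genes (20, 5 and 3). In that order the siMondoA shares were 25% and 41.7%, 10% and 20%, 15% and 5%, and 25% and 15%, against 18% and 18.2% of all genes. At an unadjusted p under 0.05 these 4 lists had 3, 4, 2 and 4 genes, DESeq2 called 1, 1, 2 and 2 and limma-voom 3, 3, 2 and 4. In the fit of the drug libraries alone the rises and falls after SBI-477 were 2 and 3, 2 and 0, 2 and 1, and 3 and 4. Their shares were 16.7% and 25%, 10% and 0%, 10% and 5%, and 15% and 20%, against 8.88% and 9.33%. SBI-477 and siMondoA medians of these lists were -0.13 and -0.29, 0.20 and 0.03, 0.00 and 0.15, and 0.10 and 0.24.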

How the data were processed

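Gene counts of PSN-1 libraries were grouped by title: SBI477 and DMSO (replicates 1 and 3) and siMondoA and siControl (replicates 1, 2 and 3). Per the labels' protocols, Kapa libraries were made from 500 ng of RNA and read as 25-base pairs; the sources used here do not say whether strand was kept. The submitters' processing notes name HTSeq 0.6.1, TopHat2 2.1.0, bcl2fastq 1.8.4 and edgeR as tools, and both hg38 and mm10 as builds. Each experiment has 1 table, in which the authors deposited unnormalized counts by gene and by library. The same deposited tables hold the authors' log2 fold change and p-value columns, which were used only to check labels and to quote values named as theirs.

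Genes were kept by filterByExpr (minimum count 10), scaled by TMM and tested with edgeR 4.0.16 (glmQLFit, glmQLFTest; R 4.3.3) in 1 fit of 10 libraries with group means. The contrasts were SBI477 minus DMSO, siMondoA minus siControl, and the first minus the second; ± is the standard error. DESeq2 1.42.0 and limma 3.58.1 served as alternatives, and the pipeline was tested on simulated data. The authors' drug column was matched by a DESeq2 fit with a replicate term to a median absolute difference of 0.00446 with SBI477 2 and DMSO 2 exchanged, against 0.195 as labelled and 0.117 to 0.336 for the other exchanges (13086 genes). Same-numbered siRNA libraries correlated at 0.0398 to 0.137 in their deviations and were not treated as pairs.

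Members, lists and settings were chosen with earlier results of these data known. The 29 pathway lists and 3 marker lists hold 588 genes, of which 586 matched and 552 were tested. Named genes came from a fixed rule: the 5 given markers, known MondoA and ISR genes, the 8 largest differences each way, the 6 smallest p per class and direction, and up to 4 members per list by each of 2 criteria. Which of them appear was decided after values were seen, as were the list members named without values, LUM, PDGFRA and PTPRC. Positions are from GENCODE v29 on GRCh38. Figures used Python 3.11.15 and matplotlib 3.10.9.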

Additional observations from a re-analysis of the deposited data

Results flagged for a closer look

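Of the 428 genes called for SBI-477 in replicates 1 and 3, 414 moved the other way between the libraries labelled SBI477 replicate 2 and DMSO replicate 2, which were outside the fit. Of the named genes, WLS was at 352 CPM in the library labelled SBI477 replicate 2 and at 917 CPM in that labelled DMSO replicate 2, LAPTM5 at 52.9 and 230 CPM, and HSD11B1 at 1.44 and 10.3 CPM. Each value lies near that of the opposite label in replicates 1 and 3. The labels are given as deposited. Beyond the values above, these libraries enter the alternative named for all 6 drug libraries and the check against the authors' drug column. By that check the authors' drug values quoted for TXNIP and ATF4 also use them, with their labels exchanged.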

How the results depend on the processing

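Counts of called genes moved with the settings. In the main analysis the difference of effects, SBI-477, siMondoA, shared, opposite, SBI-477 only and siMondoA only counts were 2397, 428, 4978, 168, 51, 137 and 1931. Using all 6 drug libraries as labelled, the difference was called for 1462 genes, SBI-477 for 0 by edgeR (423 at an unadjusted p under 0.05), and the shared, opposite and SBI-477 only classes held 0. Without a filter on low counts the SBI-477, shared, opposite and SBI-477 only counts were 1144, 445, 175 and 283, and with DESeq2 1084, 365, 156 and 276. With limma-voom and sample weights they were 2827, 839, 497 and 707, beside 4798 differences and 3108 siMondoA only. With each effect fitted on its own libraries, a setting added after the data were seen, they were 2509, 580, 297 and 422. With siMLX libraries added they were 261, 104, 21 and 89, beside 1595 differences and 1285 siMondoA only. The shared, opposite, SBI-477 only and siMondoA only classes held 16, 2, 11 and 590 genes at an adjusted p under 0.01, and 63, 7, 76 and 749 with at least 2-fold effects. DESeq2 size factors and thinned drug libraries stayed within 1.5 times of each count. Without 1 library at a time the 7 counts ranged over 727 to 3918, 8 to 1206, 3654 to 5813, 5 to 400, 0 to 217, 3 to 312 and 691 to 2998. The causes were not tested.

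With a replicate block the SBI-477, opposite and SBI-477 only counts were 257, 29 and 77. The deviations gave no pairing for the siRNA libraries (correlations 0.137, 0.111 and 0.0398). SBI477 and DMSO libraries of the same number correlated at -0.286, which with 2 libraries per group fixes the crossed value at 0.286. With that pairing crossed, a setting added after the data were seen, the block called 458 genes for SBI-477 and 2534 differences.

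Depth limits CCL20 and INHBE, which stood near the limit of counting in siControl, and 2 libraries per drug group leave the SBI-477 test with little information on its own spread.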
